A study of Arabidopsis thaliana with 8 samples.

Results

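The drought response of Arabidopsis thaliana plants that overexpress VaWRKY14 (OE plants), a WRKY transcription factor of grapevine, was measured in 4 of the 8 RNA sequencing libraries of the series. The members are the 2 libraries of OE plants left for 5 days without water and the 2 libraries of OE plants under normal watering, chosen by their titles. The 2 droughted and the 2 watered libraries of wild-type (WT) plants entered the same statistical model and are used here for comparison only. Plants of all 4 groups were 3-week-old, of the ecotype Columbia-0, and had been moved as seedlings from agar plates to pots of peat moss in a greenhouse. The labels call the OE plants a mixture of transgenic plants and give neither the promoter that drives the transgene nor the number of lines. One label disagrees: VaWRKY15 is the genotype entered for replicate 1 of the droughted OE group, whose title and source say VaWRKY14, and this library was kept in its group. No entry of the gene tables names the transgene, so the genotype labels were not checked against its level. The labels do not say whether the libraries of a group came from separate sets of plants, so the p-values below measure only the spread between these libraries, which may be technical. The series was made to find genes that change with VaWRKY14 overexpression, with and without drought.

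When soil dries, plants make the hormone abscisic acid (ABA). Bound to its PYR/PYL receptors, ABA stops clade A PP2C phosphatases from holding back SnRK2 kinases, and these activate ABF-type bZIP factors that bind ABA-responsive elements (core ACGTG) in the promoters of protective genes. DREB and CBF factors act on a separate element, the DRE (core CCGAC), largely without ABA. Dehydrated leaves also close stomata, slow growth and photosynthesis, and build up protective sugars and anthocyanins, while WRKY factors, which bind the W-box (core TTGAC), are best known for roles in defence, senescence and stress.

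The droughted OE libraries held 10904625 and 11074385 expected counts, and the watered OE libraries 11211698 and 11325963. At these depths 3 counts equal 0.242 to 0.313 CPM (counts relative to library size, with sizes scaled by the TMM method) per library. The labelled tissue, whole plants, was checked with root markers. Of 10 root markers 6 had no count in any OE library and 1, SHR, which is also active in vascular tissue of the shoot, was high enough to be tested. The highest of the other root markers, WOX5, reached 0.403 CPM, so defining root genes were at or near 0 in libraries labelled as whole plants. The TMM factors were 1.117 and 1.12 for the droughted OE libraries against 0.9039 and 0.8479 for the watered ones. In the same libraries the genes for light harvesting and photosystem subunits took 6.57% and 7.47% of all counts under drought, against 13.3% and 14.8% with normal watering, and the part of this difference in the scaling of other genes was not tested. All 8 libraries carry the name of a single run and lane.

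Of 19259 genes tested, 3214 (16.7%) were called at an adjusted p under 0.05 by edgeR's quasi-likelihood test, of which 1303 rose and 1911 fell in droughted OE plants. These are 6.77% and 9.92% of the genes tested, and they are the background for the counts of each gene list below. The median log2 fold change over all genes tested was 0.02, and 90% of genes lay between -0.71 and 0.89. Among called genes 389 rose and 303 fell at least 2-fold. The droughted OE libraries were both above the watered ones for 31.9% of the genes tested and both below for 29.3%, so libraries that do not overlap are common for any gene. In a principal component analysis of the 4 OE libraries the leading axis (71.2% of the variance) separated droughted from watered plants, and the next (18.1%) separated the watered libraries from each other. The split into rises and falls depends on the scaling: upper-quartile scaling gave 1937 rises and 1381 falls, and scaling by total counts alone, an alternative added after seeing the data, gave 7500 rises and 696 falls as it lifts the median of all genes by 0.35. DESeq2 gave 670 rises and 1599 falls. Without the first droughted OE library 1456 genes were called, without the second 1569, without the first watered one 2053 and without the second 1768.

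**Figure D1:**
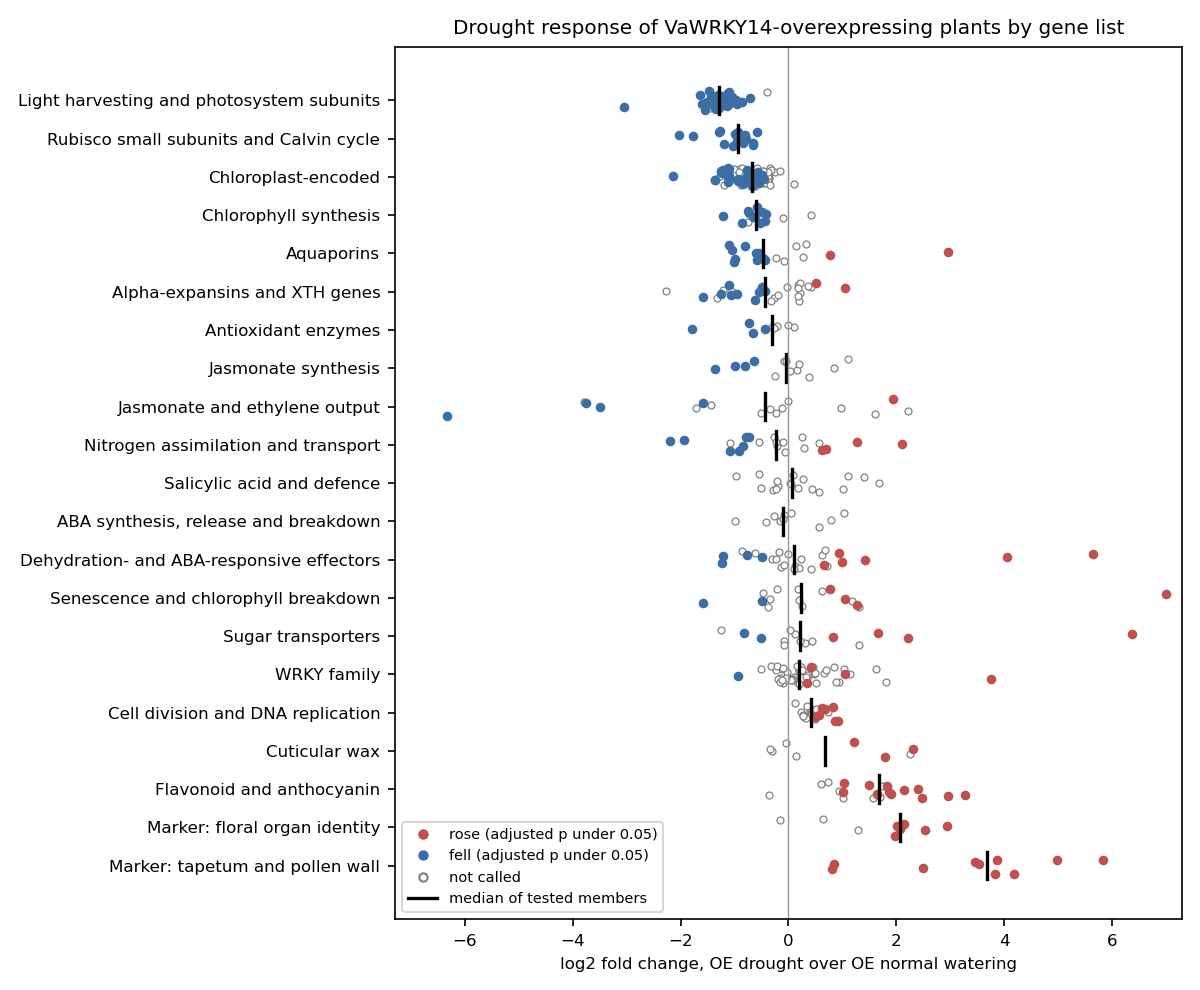
Each point is a tested member of a gene list with a count in an OE library, placed by its log2 fold change (droughted over watered OE plants, horizontal axis), with red for genes that rose, blue for genes that fell, open points for genes not called and a bar at the median of the points; the list name is on the vertical axis and values past 7 are drawn at 7. Light harvesting, Rubisco and Calvin cycle genes lie left of 0, and flavonoid genes lie right of it except MYBL2.

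Nuclear genes for photosynthesis fell together in droughted OE plants. Of the 39 genes for light-harvesting proteins and photosystem subunits, all of which passed the filter on low counts, 37 fell and none rose, with a median log2 fold change of -1.29 against 0.02 over all genes. Their summed level was 58850 and 66710 CPM in the droughted OE libraries and 147400 and 174400 CPM in the watered ones. In RNA from whole tissue, fewer green cells and less of these transcripts per cell cannot be told apart. Between 34 and 37 members were called as falls when any 1 OE library was left out. LHCB1.3, a chlorophyll-binding antenna protein of photosystem II and the gene with the highest mean FPKM in OE plants, had 12670 and 16130 CPM in the droughted OE libraries and 33540 and 41990 CPM in the watered ones. Both droughted libraries lay below both watered ones, at a log2 fold change of -1.39 ± 0.27 (adjusted p = 0.00266). Its paralogue LHCB1.4 had 439 and 892 CPM under drought and 4636 and 6382 CPM with watering, a log2 fold change of -3.05 ± 0.50, which made it the member that fell most. The LHCB1 genes are near-identical copies and the counting could divide reads between them, so the split among them is uncertain. PSAN, a lumenal subunit of photosystem I that helps plastocyanin dock, had 379 and 376 CPM under drought and 1073 and 1275 CPM with watering (-1.64 ± 0.17, adjusted p = 4.15e-05), with no overlap. LHCB1.1 and LHCB4.3 were not called, with log2 fold changes of -1.44 ± 0.42 and -0.40 ± 0.19.

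The promoters of the photosystem genes just described frame the extremes of the list, LHCB1.4 as the largest fall and PSAN as the smallest adjusted p. The 250 bases before each annotated start are given in the direction of the gene, from the TAIR10.1 assembly of RefSeq, with capitals on every ABRE core ACGTG, DRE core CCGAC and sugar element TATCCA read on either strand. LHCB1.4 lies on the plus strand at chr2:14524357-14524606 and holds 3 matches to ACGTG. PSAN lies on the minus strand at chr5:25629709-25629958 and holds no match to any of these letters in this window.
LHCB1.4: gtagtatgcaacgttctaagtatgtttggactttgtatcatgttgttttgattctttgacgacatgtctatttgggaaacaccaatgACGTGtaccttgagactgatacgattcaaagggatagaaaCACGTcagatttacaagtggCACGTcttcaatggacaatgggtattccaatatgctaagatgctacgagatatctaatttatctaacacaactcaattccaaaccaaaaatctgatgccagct
PSAN: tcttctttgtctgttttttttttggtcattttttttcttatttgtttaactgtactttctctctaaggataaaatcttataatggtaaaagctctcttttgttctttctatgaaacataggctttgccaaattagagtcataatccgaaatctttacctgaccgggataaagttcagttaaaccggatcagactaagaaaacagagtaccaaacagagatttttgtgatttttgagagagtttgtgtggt
Over the list, TATCCA, an element known from sugar-starved rice cells, was found in 51.3% of 39 promoter windows of 300 bases (250 before the start and 50 from it), against 16.6% of the 19139 windows of all tested genes. The G-box CACGTG, which contains ACGTG on each strand, was found in 33.3% of the list and in 8.8% of all windows. These shares describe letters in a window and are not binding sites.

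Carbon fixation genes fell with the antenna genes. All 18 genes for Rubisco small subunits and Calvin cycle enzymes fell, at a median of -0.94 (log2 fold change), and 13 to 18 of them were called when any 1 OE library was left out. RBCS3B, a Rubisco small subunit, had 1792 and 1584 CPM under drought and 6437 and 7434 CPM with watering, a log2 fold change of -2.04 ± 0.21 (adjusted p = 3.61e-05). RBCS1A, the most abundant small-subunit gene here by FPKM, had 8003 and 7547 CPM and 16350 and 19160 CPM in the same order (-1.19 ± 0.23, adjusted p = 0.00278). Neither gene overlapped between the groups, and the RBCS genes, too, are near-identical copies. CA1, a chloroplast carbonic anhydrase that supplies carbon dioxide, had 377 and 332 CPM under drought and 1544 and 2893 CPM with watering (-2.65 ± 0.31, adjusted p = 0.000752), the 9th largest fall of all genes that qualified for naming.

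Genes for chlorophyll synthesis also fell, by less. Of 14 genes 11 fell and none rose, with a median of -0.60. Without the first droughted OE library 3 were called and without the second watered one 5. CHLH, the large subunit of magnesium chelatase, had 287 and 312 CPM under drought and 631 and 769 CPM with watering (-1.22 ± 0.15, adjusted p = 0.000137). HEMA1, which starts the pathway from glutamyl-tRNA, had 100.4 and 146 CPM under drought and 193 and 216 CPM with watering (-0.73 ± 0.15, adjusted p = 0.00561). Droughted libraries were below watered ones for both enzymes. Genes encoded in the chloroplast moved the same way: of 88 listed, 74 passed the filter, 32 fell, none rose, and 73 of 74 fold changes were below 0. Their median was -0.67, and without the first droughted OE library 10 were called, without the second 19 and without the second watered one 17. ATCG00420 had 65.7 and 69 CPM under drought and 154 and 157 CPM with watering (-1.21 ± 0.11, adjusted p = 2.47e-05), the smallest adjusted p of the group. Among the tested genes 6 pairs, such as ATCG00840 and ATCG01300, have identical values in every library and all were called as falls, so that with each pair taken once 26 of 68 fell. All chloroplast genes together took 0.909% and 0.916% of counts under drought and 1.23% and 1.09% with watering. These falls thus rest on a small share of the counts, and how fully the libraries captured chloroplast RNA was not tested. Of 45 tested genes encoded in the mitochondrion 1 rose and 1 fell, both at fewer than 2 CPM.

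Nitrogen genes moved both ways. Of 21 tested genes for nitrogen uptake and assimilation (22 listed) 4 rose and 7 fell. The median of -0.23 turned positive when libraries were scaled by total counts (0.12) or analysed as FPKM (0.09), so only the single calls are described. NIR1, nitrite reductase, had 18.9 and 19.9 CPM under drought and 77.6 and 70.8 CPM with watering, a log2 fold change of -1.93 ± 0.13 and the smallest adjusted p of all genes tested (5.18e-06). NIA2, the main nitrate reductase, had 49.1 and 55.3 CPM and 266 and 215 CPM in the same order (-2.2 ± 0.36, adjusted p = 0.0166). NRT1.1, the dual-affinity nitrate transporter and sensor, the plastid glutamine synthetase GS2 and the glutamate synthases GLT1 and GLU1 fell as well, with log2 fold changes of -0.84, -0.91, -1.09 and -0.78. The 3 called genes of cytosolic glutamine synthetase, which reassimilates ammonium released in ageing tissue, all rose. GLN1.4 had 137 and 101 CPM under drought and 26.7 and 28.8 CPM with watering (2.1 ± 0.15, adjusted p = 6.36e-06). GLN1.1 and GLN1.3 rose with log2 fold changes of 0.69 ± 0.15 and 0.62 ± 0.12. NRT1.5, which loads nitrate into the xylem, had 18.5 and 21.8 CPM under drought and 9.28 and 7.29 CPM with watering (1.28 ± 0.19, adjusted p = 0.000362).

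Regulators known to respond to nitrate stood among the largest falls. BT2, a BTB and TAZ domain scaffold protein that responds to nitrate and sugars, had 16.4 and 17.2 CPM in the droughted OE libraries and 309 and 427 CPM in the watered ones, the largest fall after the defensin PDF1.3 among genes that qualified for naming (-4.45 ± 0.41, adjusted p = 0.00216). LBD38, a nitrate-induced factor that represses anthocyanin genes, had 3.86 and 6.62 CPM under drought and 21.6 and 29 CPM with watering (-2.27 ± 0.22, adjusted p = 4.46e-05). Neither gene overlapped between the groups. In WT plants the log2 fold changes were -5.47 ± 0.44 for BT2, -3.06 ± 0.24 for LBD38 and -2.09 ± 0.14 for NIR1.

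**Figure D2:**
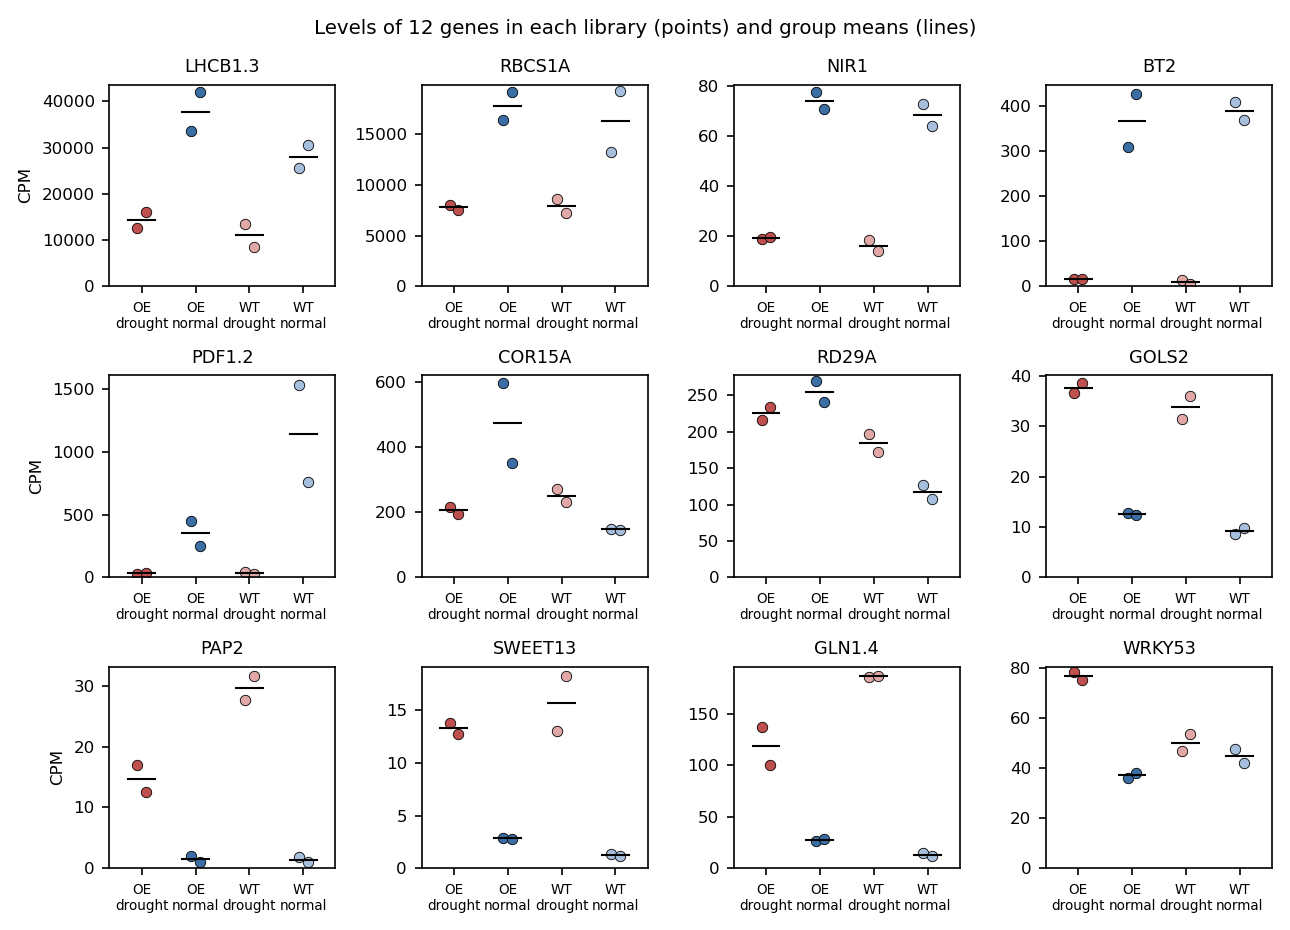
Levels of 12 genes in CPM (vertical axis, linear from 0) in each library, with 1 point per library and a line at the group mean, for droughted and watered OE plants and then droughted and watered WT plants. BT2 and NIR1 are low in all droughted libraries, GOLS2 and PAP2 are high in them, and COR15A is highest in the watered OE libraries at 349.5 and 596 CPM.

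Flavonoid and anthocyanin genes rose. Of 20 tested genes (22 listed) 12 rose and none fell, all 12 at least 2-fold, and MYBL2, a repressor of the pathway, was the only member with a fold change below 0. The median was 1.67, and the summed level was 402.8 and 332.3 CPM under drought against 162.5 and 171.8 CPM with watering. Without the first droughted OE library 7 were called, without the second 9, and without the first and the second watered library 7 and 8. PAP2, a MYB factor that switches on anthocyanin synthesis, had 16.9 and 12.6 CPM under drought and 1.98 and 1.04 CPM with watering, a log2 fold change of 3.27 ± 0.28 (adjusted p = 2.47e-05). Its paralogue PAP1 had 6.41 and 8.07 CPM and 1.58 and 1.67 CPM in the same order (2.15 ± 0.57, adjusted p = 0.0437). Among the enzymes, F3H, flavanone 3-hydroxylase, had 16.4 and 12 CPM under drought and 3.26 and 4.38 CPM with watering (1.89 ± 0.22, adjusted p = 8.34e-05). FLS1, flavonol synthase, rose to 22.9 and 15 CPM under drought, against 2.47 and 4.38 CPM with watering (2.47 ± 0.31, adjusted p = 0.000698). UF3GT, a glycosyltransferase that decorates anthocyanins, had 7.81 and 7.26 CPM under drought and 0.79 and 1.15 CPM with watering (2.95 ± 0.35, adjusted p = 0.0001). GSTF12, needed to bring these pigments to the vacuole, rose as well (2.4 ± 0.44). In WT plants 13 of the 20 rose, with a median of 1.62.

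The promoters of PAP2 and UF3GT, the regulator and the enzyme of the list with the largest log2 fold changes, both carry the G-box CACGTG, which counts as a match to ACGTG on each strand. PAP2 lies on the plus strand at chr1:24763691-24763940, with 4 matches to ACGTG and 1 to TATCCA. UF3GT lies on the minus strand at chr5:21938397-21938646, with 4 matches to ACGTG. Capitals are as above.
PAP2: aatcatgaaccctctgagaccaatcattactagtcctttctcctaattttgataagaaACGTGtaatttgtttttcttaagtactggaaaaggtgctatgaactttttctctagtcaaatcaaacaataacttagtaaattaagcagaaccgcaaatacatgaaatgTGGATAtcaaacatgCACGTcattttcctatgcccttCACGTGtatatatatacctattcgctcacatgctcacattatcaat
UF3GT: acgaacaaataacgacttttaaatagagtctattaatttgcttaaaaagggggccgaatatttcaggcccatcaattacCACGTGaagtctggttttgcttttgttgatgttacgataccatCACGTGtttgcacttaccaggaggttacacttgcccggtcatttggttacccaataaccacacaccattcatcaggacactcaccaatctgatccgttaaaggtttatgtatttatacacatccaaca
A G-box was found in 40% of the 20 promoter windows of the list, against 8.8% of all windows, and ACGTG in 60% against 27.4%.

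Few genes of ABA synthesis and perception were called. Of 10 tested genes for ABA synthesis, release and breakdown (14 listed) none was called, and NCED3, the drought-induced enzyme that limits ABA synthesis, had 11.3 and 8.71 CPM under drought and 14.1 and 12.6 CPM with watering (-0.42 ± 0.19, adjusted p = 0.14). At an unadjusted p under 0.05 in edgeR's test 5 of the 10 passed, beside 5927 of all 19259 genes tested. Of 8 tested ABA receptors (14 listed) 1, PYL5, fell, with 15.4 and 12.5 CPM under drought and 28.6 and 46.8 CPM with watering (-1.43 ± 0.21, adjusted p = 0.0015). Of 7 tested clade A PP2C phosphatases, which are both brakes and markers of ABA signalling, 2 rose. HAI2 had 7.73 and 7.02 CPM under drought and 2.07 and 2.92 CPM with watering (1.56 ± 0.29, adjusted p = 0.00209), and ABI2 rose with a log2 fold change of 0.77 ± 0.16. PP2CA was not called, at 161 and 135 CPM and 135 and 135 CPM in the same order (0.14 ± 0.12, adjusted p = 0.493). Among 15 SnRK2 kinases and ABF-type factors ABI5 rose (1.17 ± 0.27, adjusted p = 0.00726) to 6.33 and 4.92 CPM under drought, against 2.37 and 2.6 CPM with watering.

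Protective genes downstream of ABA and DREB factors were split. Of 26 tested dehydration- and ABA-responsive genes (33 listed) 6 rose and 4 fell, and the median was 0.11. Without the second droughted OE library 3 rose and 1 fell, and without the first watered one 3 rose. The homeobox factors ATHB7 and ATHB12, which rise with water deficit, were among those that rose. ATHB12 had 10.7 and 12.8 CPM under drought and 4.34 and 4.48 CPM with watering (1.41 ± 0.19, adjusted p = 0.000251). ATHB7 had 16.1 and 20.09 CPM and 9.08 and 9.9 CPM in the same order (0.93 ± 0.23, adjusted p = 0.0172). LTP3 and LTP4, lipid transfer proteins, were near 0 with watering and rose: LTP3 had 3.94 and 4.84 CPM under drought and 0.395 and 0.104 CPM with watering (4.06 ± 0.52), and LTP4 had a ratio of 61.0 (exact interval 10.6 to 2440, counting error only) between the groups. The dehydrin LTI30 (1.00 ± 0.28) and the late embryogenesis protein SAG21 (0.66 ± 0.19) completed the genes that rose.

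All 4 genes that fell are cold-regulated (COR) genes. COR15A, whose product protects chloroplast membranes, had 216 and 194 CPM in the droughted OE libraries and 596 and 349.5 CPM in the watered ones (-1.21 ± 0.21, adjusted p = 0.00478). COR15B had 219.5 and 191 CPM and 563 and 399 CPM in the same order (-1.23 ± 0.20, adjusted p = 0.00223). The membrane proteins COR413IM1 and COR413-PM1 fell with log2 fold changes of -0.76 ± 0.16 and -0.49 ± 0.12. In WT plants COR15A rose, with 270.1 and 230.0 CPM under drought and 147 and 146 CPM with watering (0.77 ± 0.22, adjusted p = 0.0442), but the difference between the genotypes' responses of -1.97 ± 0.30 narrowly missed the threshold (adjusted p = 0.0502). RD29A, the classic reporter gene with DRE and ABA elements, was not called in OE plants, at 217 and 234 CPM under drought and 269 and 241 CPM with watering (-0.18 ± 0.13, adjusted p = 0.361). In WT plants it rose, with 197 and 172 CPM under drought and 127 and 108 CPM with watering (0.65 ± 0.13, adjusted p = 0.00351). Both watered OE libraries were above both droughted WT libraries, and the difference of responses of -0.83 ± 0.18 was not called (adjusted p = 0.0703). RAB18, an ABA-induced dehydrin, had 4.85 and 7.02 CPM and 3.16 and 5.73 CPM in droughted and watered OE plants and was not called. RD29B, induced mainly by ABA, stayed below 0.4 CPM in all OE libraries and was not tested.

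GOLS2, the drought-induced galactinol synthase that starts the synthesis of raffinose sugars, had one of the smallest adjusted p-values of all genes. It had 36.7 and 38.6 CPM under drought and 12.8 and 12.4 CPM with watering (1.58 ± 0.13, adjusted p = 1.19e-05), with no overlap, and 1.88 ± 0.14 in WT plants. DIN10, a raffinose synthase family gene of darkness, fell (-1.11 ± 0.17). Of 9 proline genes only P5CS2 was called, as a fall (-0.41 ± 0.12). Over 17 alternatives its log2 fold change was -0.46 to -0.05, and the call was lost in 7 of them. P5CS1, the stress-induced enzyme of proline synthesis, had 59.8 and 94.7 CPM under drought and 62.4 and 64.6 CPM with watering (adjusted p = 0.32). Of 8 tested CBF and DREB factors on the list RAP2.4 alone was called, as a fall of -0.35 ± 0.11. That value became 0.01 under scaling by total counts and in the FPKM analysis. The factor DREB26, which is not on this list, also fell (-2.21 ± 0.48) and is described with the largest falls below.

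The promoters of GOLS2, RD29A and COR15A show the DRE core in genes that rose, were not called and fell in droughted OE plants. GOLS2 lies on the plus strand at chr1:21207287-21207536, with 1 match to CCGAC and 1 to TATCCA. RD29A lies on the plus strand at chr5:21240467-21240716, with 3 matches to CCGAC. COR15A lies on the minus strand at chr2:17712331-17712580, with 2 matches to CCGAC and a single G-box. Capitals are as above.
GOLS2: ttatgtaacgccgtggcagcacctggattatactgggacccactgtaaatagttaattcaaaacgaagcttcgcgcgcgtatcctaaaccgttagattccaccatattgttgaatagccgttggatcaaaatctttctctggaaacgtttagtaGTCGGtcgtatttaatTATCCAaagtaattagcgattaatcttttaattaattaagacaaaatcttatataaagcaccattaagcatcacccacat
RD29A: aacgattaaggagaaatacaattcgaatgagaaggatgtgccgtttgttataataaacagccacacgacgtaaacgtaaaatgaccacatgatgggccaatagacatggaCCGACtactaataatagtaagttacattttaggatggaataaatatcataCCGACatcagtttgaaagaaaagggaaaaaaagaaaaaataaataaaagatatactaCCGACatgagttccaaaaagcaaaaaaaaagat
COR15A: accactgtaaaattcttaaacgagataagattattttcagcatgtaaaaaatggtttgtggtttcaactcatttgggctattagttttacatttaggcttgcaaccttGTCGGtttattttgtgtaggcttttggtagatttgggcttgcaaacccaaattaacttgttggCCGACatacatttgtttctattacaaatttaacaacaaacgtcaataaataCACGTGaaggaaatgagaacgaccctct
CCGAC was found in 30.8% of the 26 windows of dehydration- and ABA-responsive genes, in 9.8% of those of genes that rose at least 2-fold, in 14.9% of those that fell at least 2-fold and in 16.3% of all windows. ACGTG was found in 37.6% of windows of genes that rose at least 2-fold and 35.1% of those that fell, against 27.4% of all. For the W-box core TTGAC the shares were 51.5%, 47.2% and 50.5% in the same order. TATCCA was found in 13.9% of windows of genes that rose, 30.2% of those that fell and 16.6% of all.

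More genes for water channels and for wall loosening fell than rose. Of 17 tested aquaporins (19 listed) 10 fell and 2 rose, with a median of -0.47. Falls numbered 5 without the first droughted OE library and 5 without the second watered one. PIP2B, a plasma membrane water channel, had 26.3 and 31.9 CPM under drought and 61.3 and 64.4 CPM with watering (-1.11 ± 0.13, adjusted p = 8.13e-05). TIP2.2, a vacuolar channel, had 33.5 and 32.7 CPM and 62.5 and 70.7 CPM in the same order (-1.01 ± 0.12, adjusted p = 9.26e-05). PIP2.5 (0.78 ± 0.16) and the scarce TIP4.1 (2.96 ± 0.71) rose. Of 29 tested alpha-expansins and XTH wall-loosening genes 10 fell and 2 rose. Without the first droughted OE library 4 fell, and without the second watered one 6. XTH8 had 11.42 and 12.2 CPM under drought and 31.6 and 24.4 CPM with watering (-1.25 ± 0.16, adjusted p = 0.000137), while EXPA15 rose (1.04 ± 0.19, adjusted p = 0.00218). Under scaling by total counts the medians of both lists stayed below 0, at -0.12 for aquaporins and -0.07 for wall-loosening genes.

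Of 8 cuticular wax genes 3 rose and none fell. CER1, needed for the alkanes that dominate stem and leaf wax, had 80.5 and 86.2 CPM in the droughted OE libraries and 30.6 and 40.8 CPM in the watered ones (1.22 ± 0.14, adjusted p = 0.00011). WSD1, a wax ester synthase, had 5.84 and 5.81 CPM and 0.889 and 1.46 CPM in the same order (2.31 ± 0.35, adjusted p = 0.000494), and CER4 rose as well (1.8 ± 0.38). Of 10 tested antioxidant enzymes 4 fell and none rose, but their median of -0.30 became 0.06 under scaling by total counts and in the FPKM analysis, and none was called without the second droughted OE library. FSD1, an iron superoxide dismutase of the chloroplast, had 114 and 100.3 CPM under drought and 372 and 366 CPM with watering (-1.79 ± 0.27, adjusted p = 0.00523). All 3 ferritins called, which store iron in plastids, fell, with FER1 at 180.5 and 146 CPM under drought and 409 and 314 CPM with watering (-1.15 ± 0.15, adjusted p = 0.000212).

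Jasmonate genes fell in part. Of 13 tested genes of jasmonate synthesis 4 fell, all of them early steps in the chloroplast. LOX2, the lipoxygenase that makes the precursor in leaves, had 494 and 554 CPM under drought and 1422 and 1265 CPM with watering (-1.36 ± 0.19, adjusted p = 0.000294). The allene oxide synthase AOS and cyclases AOC1 and AOC2 fell with log2 fold changes of -0.64 ± 0.17, -0.81 ± 0.16 and -0.99 ± 0.17. Of 16 tested output genes of jasmonate and ethylene 4 fell and 1 rose, with 2 falls called when either droughted or the second watered OE library was left out. PDF1.2, a defensin that marks joint jasmonate and ethylene signalling, had 23.7 and 38.1 CPM under drought and 449.9 and 249.9 CPM with watering (-3.5 ± 0.62, adjusted p = 0.0283). PDF1.3 had 0.164 and 1.77 CPM and 84 and 74.3 CPM in the same order, the largest fall of all genes that qualified for naming (-6.33 ± 0.72). PDF1.2 and PDF1.2b are near-identical, so reads may be divided between them. VSP2, a storage protein induced by jasmonate and wounding, rose instead, with 91.2 and 85.8 CPM under drought and 20.9 and 25.3 CPM with watering (1.94 ± 0.36, adjusted p = 0.0247). None of 18 genes of salicylic acid signalling and defence was called by edgeR. An unadjusted p under 0.05 was reached by 2 of them, beside 5927 of all 19259 genes tested. PR1, the marker of this pathway, had 8.63 and 17.8 CPM under drought and 30.7 and 21.2 CPM with watering (-0.97 ± 1.05, adjusted p = 0.603).

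In the WRKY family of Arabidopsis itself 51 of 64 listed genes were tested, and 4 rose and 1 fell, at a median of 0.19. WRKY53, a regulator of leaf senescence, had 78.7 and 75.3 CPM in the droughted OE libraries and 36.2 and 38.2 CPM in the watered ones (1.05 ± 0.12, adjusted p = 6.38e-05). The groups did not overlap. WRKY61 rose to 1.89 and 1.13 CPM under drought, against 0.0987 and 0.104 CPM with watering, a ratio of 14.9 (exact interval 3.83 to 127, counting error only). WRKY32 and WRKY39 rose by less, with log2 fold changes of 0.41 ± 0.13 and 0.35 ± 0.11. WRKY22, a factor of immune signalling, fell, with 7.73 and 10.08 CPM under drought and 13.5 and 20.6 CPM with watering (-0.94 ± 0.20, adjusted p = 0.00595).

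Senescence genes did not move as a group. Of 16 genes for senescence and chlorophyll breakdown 4 rose and 2 fell. NYE2, a magnesium dechelatase that starts chlorophyll breakdown, had 22.4 and 16.8 CPM under drought and 8.69 and 7.5 CPM with watering (1.27 ± 0.22, adjusted p = 0.00161), and NYE1 rose as well (0.77 ± 0.19). SAG12, a protease gene widely used as a marker of late senescence, had 185 and 58.6 CPM in the droughted OE libraries and no count in the watered ones, which is at least 401-fold higher against a floor of 3 counts per watered library (adjusted p = 0.0367). The droughted libraries differ 3.16-fold from each other for SAG12, and without the first of them the bound is 193-fold. The call was lost in 7 of 16 alternatives, with an adjusted p of up to 0.263. SEN1, a gene of darkness and ageing, fell (-1.59 ± 0.22, adjusted p = 0.00253), while the senescence factors NAP and ORE1 were not called, at log2 fold changes of 0.26 ± 0.34 and 0.19 ± 0.22. Of 13 dark- and sugar-starvation genes 3 fell and 1 rose. The one that rose, the beta-glucosidase DIN2, had 15.2 and 12.3 CPM under drought and no count with watering, at least 45.1-fold higher against the same floor.

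Of 15 sugar transporters 4 rose and 2 fell. SWEET13, an exporter of sucrose, had 13.8 and 12.8 CPM under drought and 2.86 and 2.81 CPM with watering (2.22 ± 0.22, adjusted p = 3.46e-05). SWEET14 had 23 counts under drought and none with watering, at least 3.08-fold higher against the floor of 3 counts per library. STP1, a hexose uptake carrier, fell, with 224 and 243 CPM under drought and 312 and 518 CPM with watering (-0.83 ± 0.23, adjusted p = 0.0396).

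Many genes of flower organs and of the pollen wall rose in droughted OE plants. Of 13 floral organ identity genes 11 passed the filter and 6 rose. Their summed level was 101.4 and 78.2 CPM in the droughted OE libraries and 21.9 and 43.9 CPM in the watered ones. Of 15 tapetum and pollen wall genes 12 passed and 10 rose, and the 2 tested members that were not called, GRP19 and LTP12, had no count in any OE library. Their summed level was 110.7 and 88.7 CPM under drought and 23.8 and 34.3 CPM with watering. AP1, which gives floral meristems their identity, had 14.1 and 8.95 CPM under drought and 1.38 and 2.6 CPM with watering (2.53 ± 0.41, adjusted p = 0.00305). AP3, a petal and stamen gene, had 14.3 and 9.52 CPM and 0.987 and 4.69 CPM in the same order and was not called (2.08 ± 0.58, adjusted p = 0.0656). MS2, a fatty acyl reductase of the pollen wall, had 7.81 and 5.08 CPM under drought and 0 and 0.208 CPM with watering, a ratio of 63.4 (exact interval 17.3 to 528, counting error only). In WT plants no floral organ gene was called and 2 tapetum genes, MS2 and CYP703A2, rose. The list medians there were 0.57 and 1.23, against 2.07 and 3.49 in OE plants. The summed tapetum level in WT plants was 57.5 and 83.2 CPM under drought and 49.8 and 38.7 CPM with watering. The difference of responses was called for no floral organ gene and 1 tapetum gene. The watered OE libraries differed from each other in these markers, the first being lower than the second for all 6 floral organ genes that rose. Without the first droughted OE library 4 floral organ and 4 tapetum genes were called, and without the second watered one 9 and 10.

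Of 23 genes for cell division and DNA replication 7 rose and none fell, and all 23 fold changes were above 0, with a median of 0.42. Called were 1 without the first droughted OE library, 4 without the second, and 2 without the first watered one. CYCA1.1, a mitotic cyclin, had 15 and 10.8 CPM under drought and 7.9 and 5.73 CPM with watering (0.91 ± 0.21, adjusted p = 0.00745). CDKB2.1, a cyclin-dependent kinase of dividing cells, had 29.1 and 28.1 CPM and 18.9 and 18.4 CPM in the same order (0.62 ± 0.14, adjusted p = 0.00596). Their levels did not overlap between the groups. In WT plants none of the 23 was called and the median was -0.19. The difference of responses was called for none of them by edgeR, at an adjusted p of 0.0843 for CYCA1.1. For this difference 17 of 23 had an unadjusted p under 0.05, beside 2407 of all 19259 genes tested. Flower markers moved in the same libraries as the cell division genes, and their part in that rise was not tested.

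**Figure D3:**
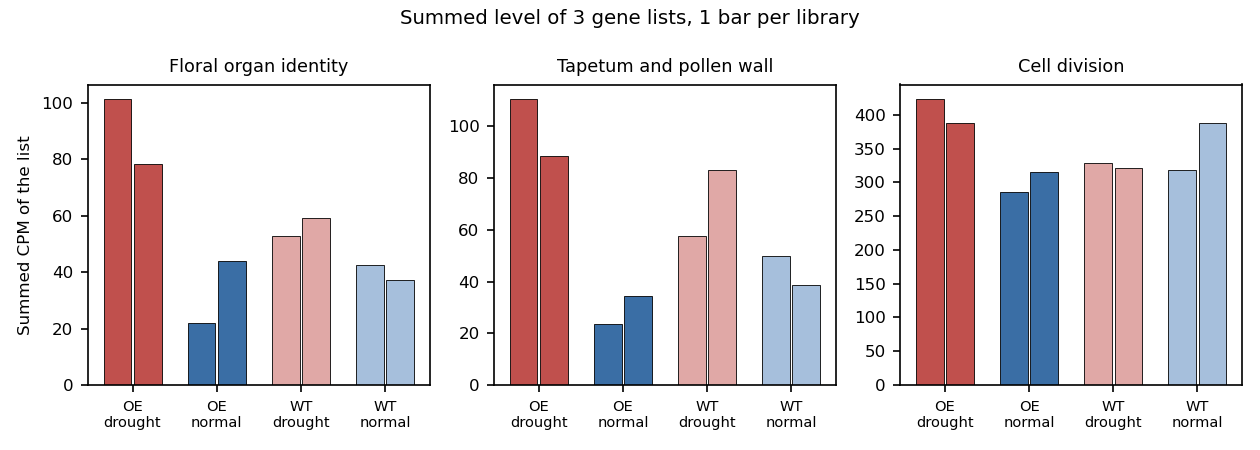
Summed CPM of floral organ identity, tapetum and pollen wall, and cell division genes (vertical axes, linear from 0), with 1 bar per library, for droughted and watered OE plants and then droughted and watered WT plants. The droughted OE libraries are the highest of all 8 for floral organ identity, at 101.4 and 78.2 CPM, and for tapetum genes, at 110.7 and 88.7 CPM.

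The largest rises that qualified for naming (called, averaging 5 CPM or more, groups apart) included several of unknown or reproductive annotation. AT2G20870, annotated as a cell wall protein precursor, had 82.8 and 48.5 CPM in the droughted OE libraries and 0.79 and 4.79 CPM in the watered ones (4.57 ± 0.88, adjusted p = 0.0379), a call lost in 10 of 17 alternatives with an adjusted p of up to 0.146. AT5G22430, of the pollen Ole e 1 allergen and extensin family, had 44.3 and 25.4 CPM and 1.28 and 4.06 CPM in the same order (3.71 ± 0.67). AT5G44540, annotated as a tapetum-specific protein, had 11.1 and 9.92 CPM and 0.395 and 1.98 CPM (3.15 ± 0.58). Flower markers were higher in the same droughted libraries, and their part in these rises was not tested. AT5G33370, a GDSL-type lipase, had 48 and 41 CPM under drought and 4.74 and 6.25 CPM with watering (3.02 ± 0.23, adjusted p = 2.73e-05). CSLA01, a cellulose synthase-like gene, AT1G09500, of the Rossmann-fold family, and AT5G62210, annotated as an embryo-specific protein, rose with log2 fold changes of 5.77 ± 1.13, 4.11 ± 0.83 and 2.96 ± 0.35, the first and second of these calls being lost in 5 and 7 of 17 alternatives. Of 55 genes that rose at least 8-fold, 7 are on the floral organ or tapetum lists and 45 have a mean under 5 CPM. For 32 of the 55 the watered OE libraries together held 3 counts or fewer, so their folds are poorly determined. In WT plants 15 of the 55 were also called higher. The median log2 fold change of the 55 there was 1.42, against 0.02 over all genes tested.

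Among the largest falls, after those already given, GASA1, a gibberellin-regulated peptide gene, had 29.7 and 20.01 CPM under drought and 192 and 145 CPM with watering (-2.76 ± 0.48, adjusted p = 0.0257). AT2G21210, a SAUR-like auxin-responsive gene, had 3.29 and 3.31 CPM and 27.7 and 16.2 CPM in the same order (-2.74 ± 0.32, adjusted p = 0.000558). The factor DREB26, the lectin gene AT1G78850 and AT1G49500 fell with log2 fold changes of -2.21 ± 0.48, -2.5 ± 0.55 and -2.96 ± 0.61, at adjusted p-values of 0.0481, 0.0492 and 0.0451. These calls were lost in 11, 11 and 9 of 17 alternatives, with an adjusted p of up to 0.192, 0.159 and 0.23. Of 13 genes that fell at least 8-fold, 11 were also called lower in WT plants. Of 303 that fell at least 2-fold, 222 were, and of 389 that rose at least 2-fold, 131 were also called higher in WT plants, beside 7.37% and 5.63% of all tested genes called lower and higher there.

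Other lists held few calls. The 3 genes of the floral transition that rose, of 12 tested, were FUL (1.09 ± 0.17), SPL5 (0.87 ± 0.19) and the florigen homologue TSF (2.43 ± 0.60). Among 4 phosphate starvation genes SPX1 (1.1 ± 0.21) and the galactolipid synthase MGD3 (2.16 ± 0.51) rose. Of 10 touch and rapid stress genes all had fold changes below 0, and TCH3, a calmodulin-like protein, fell (-0.81 ± 0.18). Of 15 aliphatic glucosinolate genes 2 fell, AT2G31790 and SOT18. Each of these calls was lost in 7 of 17 alternatives, with log2 fold changes of up to -0.06. Of 11 indole glucosinolate genes 1 rose and 1 fell, and of 6 sulfur deficiency genes LSU2 rose. Of 13 clock genes LNK1 rose and TOC1 fell (-0.37 ± 0.12). The TOC1 call was lost in 10 of 17 alternatives, and its log2 fold change ranged from -0.4 to -0.01 over them all. None of 5 tested heat shock genes was called by edgeR, and none of 12 tested genes with a symbol of SAUR and digits. An unadjusted p under 0.05 was reached by 1 and 4 of them, beside 5927 of all 19259 genes tested. AT2G21210, the SAUR-like gene among the largest falls above, has no such symbol and is not on that list. All 7 reference genes had both droughted OE libraries below both watered ones, beside 29.3% of all genes tested. Of these 7 the actins ACT2 (-0.78 ± 0.14) and ACT8 (-0.61 ± 0.13) were called as falls. The list's median of -0.22 turned positive under scaling by total counts. The guard cell potassium channel KAT1 was the only called gene, as a fall (-0.48 ± 0.15), of 8 guard cell and stomatal lineage markers. Its call was lost in 7 of 17 alternatives, over all of which its log2 fold change was -0.71 to -0.12.

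Whether OE plants responded to drought otherwise than WT plants was tested as the difference of the 2 responses. It was called for 31 genes (0.161% of those tested), 19 with a higher (0.0987%) and 12 with a lower response (0.0623%) in OE plants. At an unadjusted p under 0.05 there were 2407 genes, and DESeq2 called 146. The count rests on single libraries: it was 2 without the second droughted OE library, 7 without the second droughted WT library, 13 without the first watered OE library, 142 without the second and 326 without the second watered WT library. The 2 responses share no library, and 389 genes were called higher in both, 869 lower in both, 8 higher in OE but lower in WT plants and 4 the reverse.

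**Figure D4:**
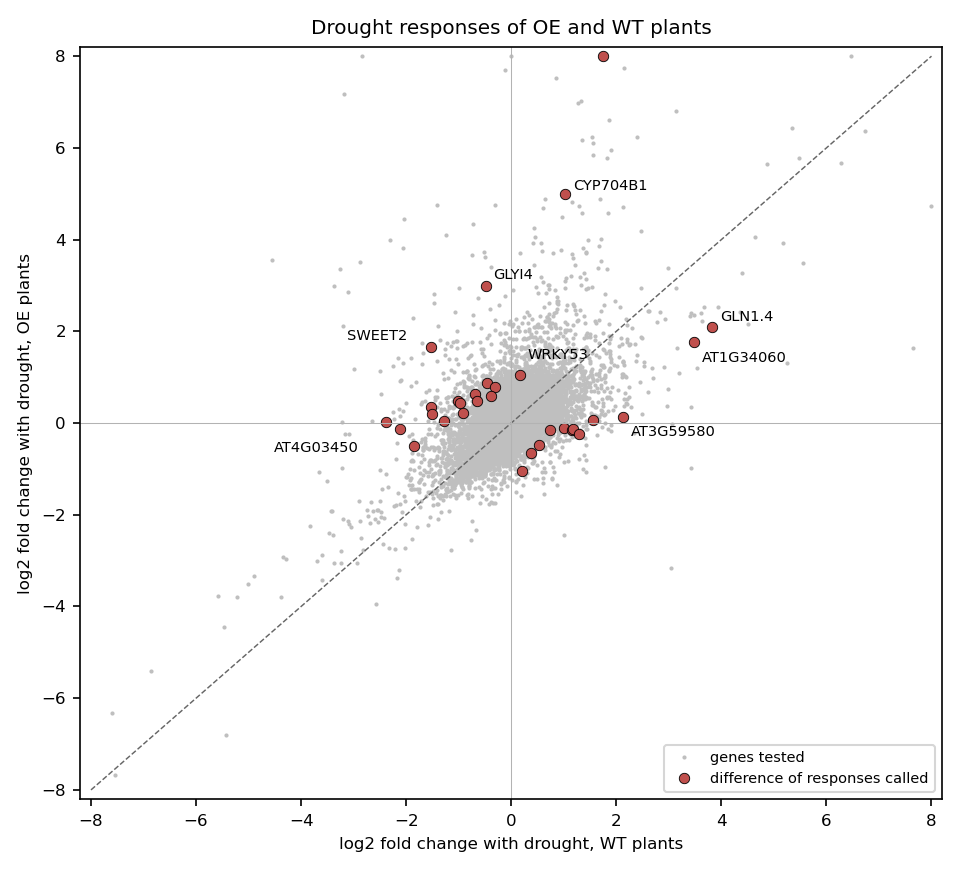
Log2 fold change with drought in OE plants (vertical axis) against that in WT plants (horizontal axis) for all genes tested, with values past 8 drawn at 8 and the dashed line marking equal responses. The 31 genes called for the difference are in red, with GLYI4, SWEET2 and CYP704B1 above the line and GLN1.4 and AT1G34060 below it.

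Genes whose response was higher in OE plants were led by CYP704B1, GLYI4 and SWEET2 among those that qualified for naming. GLYI4, annotated as a glyoxalase I family protein, had 11 and 8.39 CPM in droughted and 1.19 and 1.25 CPM in watered OE plants, and 2.16 and 1.86 CPM in droughted and 3.51 and 2.12 CPM in watered WT plants. Only the droughted OE libraries stood above 4 CPM, and the difference of responses was 3.47 ± 0.45 (adjusted p = 0.00866). It stayed called in 7 of 8 fits that left out 1 library, with an adjusted p of up to 0.0543. SWEET2, a vacuolar sugar transporter, had 6.99 and 4.36 CPM in droughted and 1.19 and 2.4 CPM in watered OE plants. In WT plants it fell, with 1.47 and 0.647 CPM under drought and 2.93 and 3.08 CPM with watering, for a difference of 3.2 ± 0.58 (adjusted p = 0.0447), called in 3 of 8 such fits. WRKY53 did not change in WT plants at the threshold (46.8 and 53.6 CPM under drought and 47.9 and 42 CPM with watering), and its difference was 0.89 ± 0.16 (adjusted p = 0.0447), called in 2 of 8 such fits. CYP704B1, a pollen wall enzyme, had 7.4 and 6.21 CPM in droughted and 0 and 0.417 CPM in watered OE plants. In WT plants it had 3.34 and 2.995 CPM under drought and 1.658 and 1.443 CPM with watering (1.02 ± 0.38, adjusted p = 0.0935). Both watered OE libraries thus lay below both watered WT libraries. Its difference of responses was 3.97 ± 0.71 (adjusted p = 0.0402), beside the flower markers described above. It was called in 2 of 8 such fits, in which the difference was 2.97 to 8.22.

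The others of this kind that were named fell in WT plants. AT1G35710, a leucine-rich repeat kinase, had 618 and 539.8 CPM in droughted and 412 and 416 CPM in watered OE plants, and 299 and 256 CPM in droughted and 500.2 and 618 CPM in watered WT plants. It rose in OE plants, fell in WT plants and had a difference of 1.5 ± 0.21 (adjusted p = 0.0099). The ankyrin repeat genes AT4G03450 and AT1G10340, the uncharacterised AT1G21313 and the phosphoglycerate mutase family gene AT1G09932 were not called in OE plants and fell in WT plants, with log2 fold changes there of -2.12, -1.51, -1.53 and -0.98. AT1G03220, an aspartyl protease, fell in both genotypes, by less in OE plants (-0.50 against -1.86).

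Genes whose response was lower in OE plants were led by AT3G59580, GLN1.4 and AT1G34060. GLN1.4 rose in both genotypes, with 186 and 187 CPM in droughted and 14.7 and 11.5 CPM in watered WT plants, so that the droughted OE libraries were below and the watered ones above their WT counterparts. Its difference was -1.73 ± 0.22 (adjusted p = 0.00866), called in 7 of 8 fits that left out 1 library. AT1G34060, of the pyridoxal phosphate-dependent transferases, had 51.5 and 37.6 CPM in droughted and 14 and 12 CPM in watered OE plants, and 75.2 and 88.3 CPM and 8.1 and 6.64 CPM in droughted and watered WT plants. It rose in both, with a difference of -1.7 ± 0.25 (adjusted p = 0.0235). AT3G59580, of the RWP-RK family, had 5.59 and 6.37 CPM in droughted and 5.23 and 5.73 CPM in watered OE plants and rose in WT plants alone at the threshold, with 8.25 and 9.06 CPM and 1.66 and 2.31 CPM. The same held for AT5G25240, OPR2, a reductase related to jasmonate synthesis enzymes, and BEE3, a brassinosteroid-responsive bHLH factor, with differences of -1.52, -1.5 and -1.32.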

How the data were processed

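Each library has 1 deposited table, which per the file headers gives every gene an expected count (not normalized), an FPKM value and a length. Per the submitters' processing notes the tools were STAR, HISAT2 2.0.5, featureCounts and edgeR on the build TAIR10, named with no role or order, and the use of strand in counting is not given in the sources used here. Genes absent from a table, which lists values above 0 only, were set to 0 counts. Symbols came from RefSeq's TAIR10.1 annotation by locus, which matched 23929 of 24132 genes listed (99.2%), and the rest are chloroplast and mitochondrial genes.

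Groups were taken from the sample titles. After rounding of the expected counts, edgeR 4.0.16 was run in R 4.3.3: filterByExpr at a minimum count of 10 (19259 genes kept), TMM scaling, and 1 robust quasi-likelihood model over all 8 libraries with 1 mean per group, which leaves 4 residual degrees of freedom before information is shared between genes. The contrasts were drought against normal watering in OE plants, the same in WT plants, and the difference of these responses. Tests were two-sided, with Benjamini-Hochberg adjustment over all genes tested and calls at an adjusted p under 0.05. An error after ± is a standard error, taken as the absolute log2 fold change over the root of its F statistic. It can come out too small for large changes of genes with few counts. The biological coefficient of variation was 10.2%, and libraries of 1 group differed by more than counting error (chi-square per degree of freedom 5.7 in droughted and 7.6 in watered OE plants). Exact 95% intervals and floors of 3 counts cover counting error only.

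The gene lists and the naming rule were chosen with earlier results of these data known. Named were the called genes with the 12 largest rises and 12 largest falls in OE plants (mean of at least 5 CPM, no overlap between groups), the 4 (or fewer) called genes of smallest adjusted p in each list, 19 fixed markers, the 6 largest differences of responses in each direction (mean of at least 5 CPM) and the 10 genes with the highest mean FPKM over the OE libraries. Other list members, and genes whose identity or low level bears on a list, were named after their values were seen. Promoter windows, from 250 bases before to 50 bases after the annotated start, were read for 19139 genes from TAIR10.1, and motifs were searched on both strands.

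Alternatives were other normalizations, no filter, DESeq2 1.42.0, a replicate block, the 4 OE libraries alone, genes listed in all 4 OE libraries, limma 3.58.1 on log2(FPKM + 1), each library left out and, added after seeing the data, scaling by total counts. The replicate numbers do not pair the samples: correlations of replicate differences between groups were -0.08 to 0.06. On simulated counts for 18777 genes, the OE drought comparison recovered 90% of 2-fold and 98% of 4-fold changes among 200 changed genes and called 14 unchanged ones. The simulation drew counts from the fitted dispersions and changed only genes at 5 CPM or more in watered OE plants. It raised as many genes as it lowered and gave WT plants no drought response. It thus lacks the broad shift of abundant genes seen in the data, and these shares are not the power of the real test. Reads and alignments were not analysed here.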

Additional observations from a re-analysis of the deposited data

Results flagged for a closer look

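The drought response of 16 genes named by the rule differed between OE and WT plants in the test of the difference itself (edgeR, adjusted p under 0.05). The response was higher in OE plants by 3.97 for CYP704B1, 3.47 for GLYI4, 3.2 for SWEET2, 2.0 for AT4G03450, 1.88 for AT1G21313, 1.71 for AT1G10340, 1.5 for AT1G35710, 1.42 for AT1G09932, 1.36 for AT1G03220 and 0.89 for WRKY53, all on the log2 scale. It was lower, with differences of -1.99 for AT3G59580, -1.73 for GLN1.4, -1.7 for AT1G34060, -1.52 for AT5G25240, -1.5 for OPR2 and -1.32 for BEE3. When any 1 of the 8 libraries was left out, GLYI4, GLN1.4 and AT5G25240 stayed called in 7 of 8 fits and AT1G35710 in 6, while WRKY53, CYP704B1 and AT1G09932 stayed called in 2. The directions of all 16 held in each of these fits. Flower markers were highest in the droughted OE libraries, and their part in the difference of CYP704B1 was not tested.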

How the results depend on the processing

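The count of genes called in OE plants was within 1.5 times the reported one under other normalizations that estimate factors and with DESeq2. The same held without the filter, with a replicate block, with the 4 OE libraries alone and in genes listed in all 4. The split into rises and falls did change. DESeq2 called 2269, of which 670 were higher and 1599 lower, and upper-quartile scaling gave 1937 higher and 1381 lower. Under other settings the count itself moved. Requiring a 2-fold change left 692 (389 higher, 303 lower). Limma on FPKM called 7600 (6932 higher, 668 lower), and scaling by total counts 8196 (7500 higher, 696 lower). Neither of these 2 settings estimates scaling factors, and they move the median of all genes to 0.32 and 0.37. The part of the most abundant genes in this shift was not tested. With 1 library left out, 1456 to 3562 genes were called (522 to 1529 higher, 934 to 2035 lower). For the difference of responses, no filter gave 202 (87 higher, 115 lower), DESeq2 146 (72 higher, 74 lower) and total counts 67 (58 higher), and leaving out 1 library gave 2 to 326 (1 to 234 higher, 1 to 92 lower); the cause was not tested. In left-out fits the lone library of a group is assumed to vary like the others. A replicate block called 3047 genes in OE plants and 44 for the difference (24 higher, 20 lower). Of 135 named genes called in OE plants, 77 stayed called under every alternative run, and RAP2.4 changed sign, to 0.01, in the FPKM analysis and under total counts. Calls of named genes were lost most often without the first droughted OE library (46 of 135) and the second watered one (43). The floor of 3 counts in a library, 0.242 to 0.313 CPM, was a chosen value and not a measured limit of detection. Genes that did not pass the filter, at a minimum count of 10, were not tested.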

Other observations

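Genes outside the lists stood among the 20 smallest adjusted p-values of the OE response. They were chosen after their values were seen and are given as values only. NF-YA2, a subunit of the nuclear factor Y, had 47.0 and 56.5 CPM in the droughted OE libraries and 12.1 and 14.3 CPM in the watered ones, and rose with a log2 fold change of 1.97 (adjusted p = 6.36e-06). NF-YA10, of the same family, had 28.1 and 24.2 CPM under drought and 7.60 and 6.88 CPM with watering, and rose with 1.85 (adjusted p = 3.11e-05). BT5, a relative of BT2, had 19.1 and 16.5 CPM under drought and 72.0 and 86.0 CPM with watering, and fell with -2.15 (adjusted p = 1.19e-05). CLC-A, which carries nitrate into the vacuole, had 17.2 and 21 CPM under drought and 71.6 and 95.5 CPM with watering, and fell with -2.13 (adjusted p = 1.85e-05). GBSS1, the starch synthase that makes amylose, had 30.2 CPM in both droughted libraries and 8.293 and 10.11 CPM in the watered ones, and rose with 1.71 (adjusted p = 1.19e-05). None of these 5 genes overlapped between droughted and watered OE libraries, and in WT plants their log2 fold changes were 1.75, 2.5, -2.53, -2.88 and 2.1 in the same order.

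AT1G47980, annotated as a desiccation-like protein, was called for the difference of responses (edgeR, adjusted p = 0.0326), but with a mean under 5 CPM it did not qualify for naming and was singled out after its values were seen. It had 4.27 and 4.52 CPM in droughted OE plants and no count in watered OE plants, against 3.34 and 3.56 CPM in droughted and 1.27 and 0.77 CPM in watered WT plants. In each genotype the droughted libraries lay above the watered ones.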
